A study of Bombyx mori with 12 samples.

Results

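Pupal ovaries of the domestic silkworm, Bombyx mori, were set against each other at stages P4 and P2 within animals labelled TBH, the hyperproteinemia model of the series, in which the protein concentration of the hemolymph is raised. All 15745 genes of the deposited table were considered, and the 4437 that reached 1 in 3 or more of the 6 TBH samples were tested. The 6 samples are 3 of TBH at P2 and 3 of TBH at P4, and the same stages of WT, also with 3 samples each, serve here to ask whether the stage change differed between the lines. Every sample is labelled as ovary, and the labels name no treatment, age, strain or promoter beyond WT, TBH and the stage. The labels do not spell out TBH or how the line was made. They state dissection of 5 female pupae with n = 3, and since the origin of each replicate is not described, the p-values reflect only how far these samples spread, which may be technical.

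The silkworm completes most of oogenesis inside the pupa. Each ovariole carries follicles in a row from young to old, in which nurse cells feed an oocyte under a layer of follicle cells. The oocyte takes up vitellogenin and 30K lipoproteins that the fat body releases into the hemolymph, the follicle cells add egg-specific protein, and the follicle then lays down the vitelline membrane and, last, the chorion of the eggshell. The hemolymph around the ovary also carries storage proteins, protease inhibitors, antimicrobial peptides and hemocytes, and ovarioles are wrapped in a sheath with muscle and tracheae. A dissected ovary is therefore a mixture, and in such bulk samples fewer cells of a type and less RNA per cell cannot be told apart.

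Values are normalized, carry no named unit and keep no read depth, so counting error cannot be stated. No source used here says whether they are scaled to transcript length, and levels are compared between samples and not between genes. The listed values of the 6 TBH samples summed to between 500449.1 and 575389.5, and between 6626 and 7485 genes were above 0. Across genes, which are not independent replicates, log2 values correlated at 0.905 to 0.925 within P2, at 0.908 to 0.938 within P4 and at 0.861 to 0.903 between the stages. TBH P4 replicate 3 stood apart: the median gene lay 0.15 above the P2 mean on the log2(value + 1) scale, against -0.44 and -0.45 in replicates 1 and 2. Ribosomal protein transcripts made up 23.9% of its listed values, against 34.2% and 35.9% in the other P4 samples and 30.8%, 30.9% and 32.5% at P2. Among the WT P2 samples, replicate 2 stood apart from the others in the same measure, with 37.7% against 22.9% and 27.7%. WT P4 samples held 33.7%, 34.1% and 36.3%, so WT P2 replicate 1, at 22.9%, was the one near TBH P4 replicate 3. An exact 0 in such a table can be a failed estimate, so such genes are described as listed at 0, with no fold where a whole group is at 0.

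Between P2 and P4, 23 genes rose in TBH ovaries (0.518% of the genes tested) and 79 fell (1.78%), and 102 (2.3%) passed in either direction. The test was limma's moderated test on log2(value + 1) with Benjamini-Hochberg adjustment over all tested genes at 0.05. At an unadjusted p under 0.05 there were 541 genes (12.2%). For all 102 called genes the 3 P4 values lay beyond the 3 P2 values, which was also so for 222 tested genes with higher P4 values (5.0%) and 588 with lower ones (13.3%). Log2 changes are given with their standard error and relative to the median change of all tested genes, which was -0.25. The p-values test each change against 0 before this median is subtracted. With a negative median, a fall is therefore easier to call than a rise of the same relative size. A rise that passed was at least 1.26 and a fall at least 0.67 in relative log2 change, and the medians were 2.55 and -2.33. Among the falls, 15 genes were listed at 0 in all 3 P4 samples, and among the rises 5 were listed at 0 in all 3 P2 samples. Such genes met the filter through the other stage alone, so they could change in 1 direction only. An informative name is carried by 574 of the tested genes (12.94%). Of these 5 rose (0.871%) and 31 fell (5.4%), whereas of the 3863 without one 18 rose (0.466%) and 48 fell (1.24%). None of the 32 tested non-coding RNA genes passed. Rises made up 22.5% of the calls as deposited and 39.3% after quantile normalization, where 42 genes rose and 65 fell. Counts also moved with single libraries: 9 rises and 50 falls passed without TBH P4 replicate 1, 10 and 54 without TBH P2 replicate 1, 10 and 51 without TBH P2 replicate 2, 14 and 58 without TBH P2 replicate 3, 15 and 60 without TBH P4 replicate 2, and 22 and 91 without TBH P4 replicate 3. Weights that give scattered samples less influence raised the counts to 163 and 1070, and leaving out TBH P4 replicate 3 together with WT P2 replicate 2 gave 37 and 171.

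**Figure D1:**
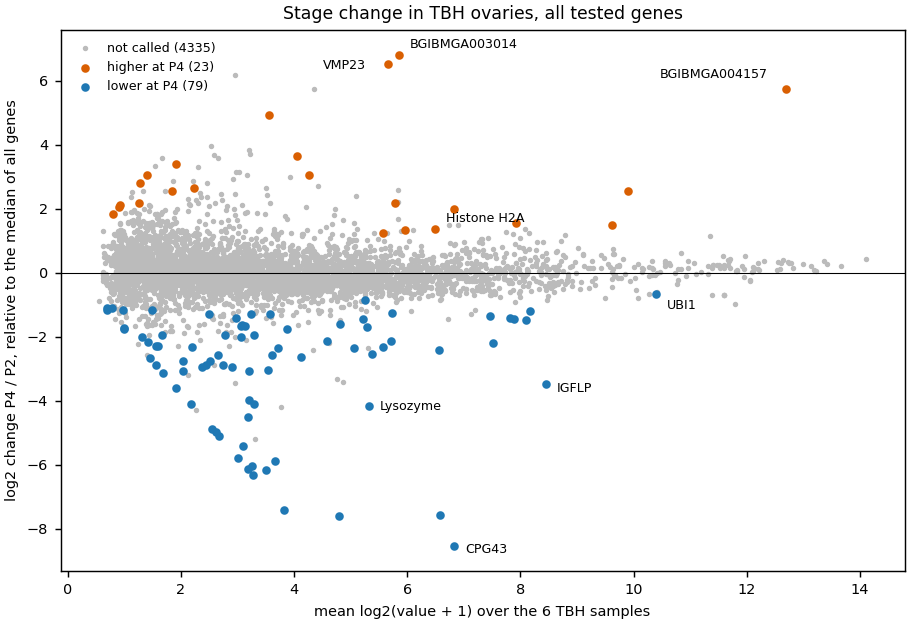
Each point is 1 of the 4437 tested genes, placed by its mean log2(value + 1) over the 6 TBH samples and by its log2 change from P2 to P4 relative to the median of all genes. Orange points are the 23 genes called higher at P4 and blue points the 79 called lower; the falls reach further from 0 than the rises, and points on the lower left diagonal are genes listed at or near 0 at P4.

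Among the transcripts of the ovary itself, the eggshell gene VMP23 showed the largest named rise. VMP23 (BGIBMGA006755) encodes a protein of the vitelline membrane, the inner layer of the eggshell that follicle cells secrete around the oocyte. Its values were 3.16, 6.53 and 4.92 at P2 and 504, 401 and 442 at P4. All P4 samples lay far above all P2 samples, a 92.1-fold rise between the means (relative log2 change 6.54 ± 0.33, adjusted p = 1e-06). No alternative setting ended this call. The other vitelline membrane genes of the table, VMP25 (BGIBMGA006587) and VMP90 (BGIBMGA006756), had no value above 0.37 in any TBH sample and were not tested, nor was the chorion gene 5H4 (BGIBMGA009722), whose highest TBH value was 0.21. Of 7 yolk and eggshell genes, 3 were tested, 1 rose and none fell, while 0.518% of all tested genes rose.

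Vitellogenin (VG, BGIBMGA004585), the yolk precursor made mainly in the fat body, was low in TBH at both stages. Its values were 5.22, 4.50 and 2.92 at P2 and 1.91, 3.53 and 3.36 at P4. The stages overlapped and the gene did not pass (relative log2 change -0.16 ± 0.54, adjusted p = 0.829). CBZ (BGIBMGA006415), annotated as a chorion b-ZIP transcription factor, overlapped too, with 11.3, 8.85 and 3.82 against 5.93, 7.49 and 17.8 (adjusted p = 0.935). Of the germ line genes, the Vasa intronic gene VIG (BGIBMGA006704) held values of 1728, 2335 and 1695 at P2 and 1623, 1847 and 1777 at P4, and the stages overlapped. SIWI (BGIBMGA010644), a Piwi protein of the piRNA pathway, AGO1 (BGIBMGA003670), an Argonaute of small RNA silencing, and NANOSO (BGIBMGA002187), a nanos homologue, were listed at 0 in all 6 TBH samples. Those markers therefore give no information on the germ line share of the samples.

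**Figure D2:**
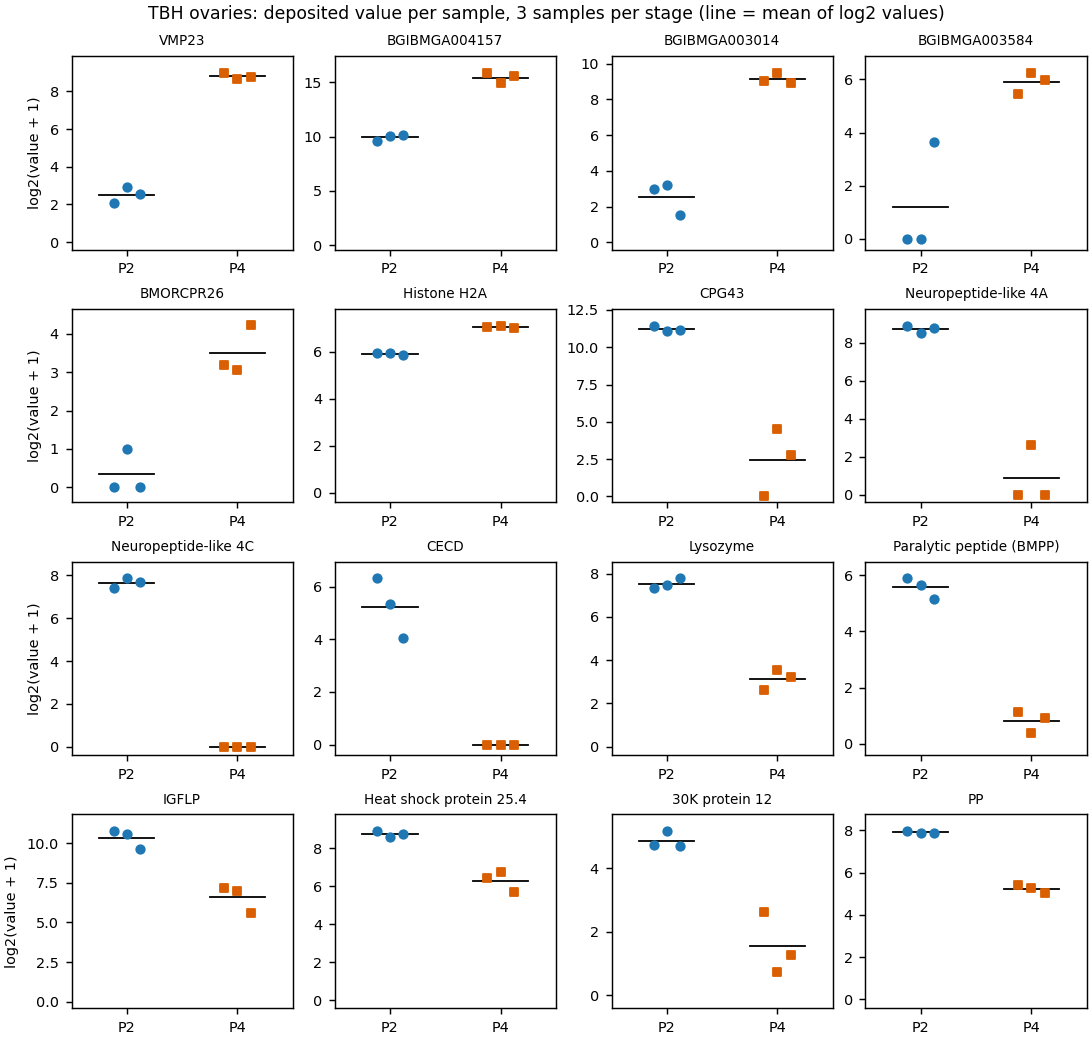
Each panel shows 1 gene, with log2(value + 1) on the y axis, blue circles for the 3 TBH P2 samples, orange squares for the 3 TBH P4 samples and a line at the mean of each group. In the 16 genes shown the stages do not overlap: the first 6 rise and the other 10 fall, 2 of which (Neuropeptide-like 4C and CECD) are at 0 in all P4 samples.

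Some of the largest rises fell on genes that the table does not name. BGIBMGA004157 went from 796, 1058 and 1154 at P2 to 58466, 31456 and 48414 at P4. Every P4 sample was above every P2 sample, a 45.98-fold rise (relative log2 change 5.74 ± 0.36, adjusted p = 4.9e-06). This gene alone took up 0.15%, 0.19% and 0.21% of the listed values at P2 and 10.2%, 5.54% and 9.67% at P4, or 0.184% ± 0.035 against 8.46% ± 2.54 (mean ± SD, n = 3 each, two-sided exact permutation test p = 0.1, the smallest that 3 samples against 3 can give). BGIBMGA003014 rose 101-fold from 6.85, 8.14 and 1.89 to 518, 711 and 481 (relative log2 change 6.82 ± 0.67, adjusted p = 0.00017). BGIBMGA003584 was listed at 0, 0 and 11.5 at P2 and stood at 42.5, 75.1 and 62.1 at P4 (relative log2 change 4.92 ± 0.87, adjusted p = 0.0133). That last call ended without TBH P2 replicate 1 (adjusted p = 0.073), TBH P2 replicate 2 (0.068) or TBH P4 replicate 2 (0.06), and in a fit of the 6 TBH samples alone.

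Other named rises were a histone and a pair of cuticle proteins. Histone H2A (BGIBMGA009649), a core protein of the nucleosome, had closely grouped values of 60.1, 61.4 and 58.2 at P2 and 131, 138 and 127 at P4, a 2.20-fold rise (relative log2 change 1.37 ± 0.26, adjusted p = 0.0458). The H2A call was near the threshold and ended without any 1 of the 6 TBH samples, with adjusted p of 0.075 to 0.16, and without any 1 of the 3 WT P4 samples (0.053 to 0.078). It was the only called member of 8 tested histone and chromatin genes, while 0.518% of all tested genes rose. Histone H3 (BGIBMGA005550), with 1302, 1423 and 1414 at P2 and 703, 679 and 1063 at P4, lay lower at P4 without overlap and did not pass (relative log2 change -0.54 ± 0.23, adjusted p = 0.134). Without TBH P4 replicate 3 the H3 gene was the 1 called member of the list (adjusted p = 0.0494).

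Proteins of the insect cuticle showed both directions. RR-type cuticle proteins carry the Rebers-Riddiford chitin-binding motif and build the exoskeleton and the lining of tracheae, a tissue that reaches the ovary. Of 110 such genes, 18 were tested, 2 rose and 16 did not pass, with a median relative log2 change of 0.56 against 0 for all genes by construction. For comparison, 0.518% of all tested genes rose, and 0.871% of those with an informative name. BMORCPR26 (BGIBMGA000343) was listed at 0, 1.01 and 0 at P2 and at 8.08, 7.35 and 17.8 at P4 (relative log2 change 3.40 ± 0.48, adjusted p = 0.0037). BMORCPR49 (BGIBMGA005148) was listed at 0, 0 and 0.87 at P2 and at 5.21, 4.49 and 2.00 at P4 (relative log2 change 2.17 ± 0.35, adjusted p = 0.0115). It met the filter through P4 alone, which left little room for a fall. The P4 samples were the higher ones for both genes, at low values, and only the call of BMORCPR49 ended without a single library, namely TBH P2 replicate 1 (adjusted p = 0.065), TBH P2 replicate 2 (0.066) or TBH P4 replicate 1 (0.062). BMORCPR23 (BGIBMGA000346), another RR-type member, stood at 14.9, 16.6 and 23.2 at P2 and 33.4, 29.3 and 25.6 at P4 and did not pass (adjusted p = 0.5).

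Other cuticle and chitin genes fell where they passed. Of 73 such genes, 17 were tested, 4 fell, none rose and 13 did not pass, and the median relative log2 change was -0.52. For comparison, 1.78% of all tested genes fell, and 5.4% of those with an informative name. CPG43 (BGIBMGA011713), a putative cuticle protein of the glycine-rich class, stood at 2754, 2136 and 2305 at P2 and 0, 21.7 and 5.92 at P4. It fell 261-fold between the means, the largest named fall on the log2(value + 1) scale but not as a ratio of means, where Neuropeptide-like 4E was larger (relative log2 change -8.54 ± 1.09, adjusted p = 0.00081). BMORCPH1 (BGIBMGA009714), a putative cuticle protein, fell from 7.37, 21.7 and 10.4 to 0, 1.24 and 0 (relative log2 change -3.06 ± 0.47, adjusted p = 0.0024). BMORCPH23 (BGIBMGA011719), of the same class name, stood at 11.7, 3.72 and 5.95 at P2 and was listed at 0 in all 3 samples at P4 (adjusted p = 0.0058). The fourth member, BMORCPH27, is also annotated as Neuropeptide-like 4A and is described with that family. A further putative cuticle protein, CPH43 (BGIBMGA005303), whose product reads CPH44, stood at 4501, 6071 and 5796 at P2 and 2775, 2883 and 1544 at P4, without overlap and without passing (adjusted p = 0.317).

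The neuropeptide-like 4 family fell as a whole to values at or near 0. It is named after a peptide precursor first described in Drosophila, and 1 of its tested silkworm genes, 4A, is also annotated as a cuticle protein. Of 9 members 8 were tested and all 8 fell, against 1.78% of all tested genes, with a median relative log2 change of -5.94. All 8 met the filter through their P2 values, which left little room for another direction. Their count beside the share of all tested genes is therefore a description only. Their summed values ran from 910 to 1094 at P2 and from 0 to 5.96 at P4, and 6 tested members were listed at 0 in all P4 samples. Neuropeptide-like 4A (BMORCPH27, BGIBMGA011714) stood at 472, 365 and 434 at P2 and 0, 5.12 and 0 at P4 (relative log2 change -7.60 ± 0.67, adjusted p = 4.3e-05). Neuropeptide-like 4C (BGIBMGA011718) stood at 170.4, 231 and 207 at P2 and 0 in all 3 samples at P4 (adjusted p = 1e-06). Neuropeptide-like 4E (NPLP4, BGIBMGA011764) went from 93.7, 114 and 104 to 0, 0.84 and 0 (relative log2 change -6.17 ± 0.41, adjusted p = 4.9e-06). Only replicate 2 of the P4 samples retained any signal of 4A and 4E. Neuropeptide-like 4F (BGIBMGA011769) had P2 values of 123, 26.96 and 77.4 and Neuropeptide-like 4D (BGIBMGA011762) of 36.1, 32.95 and 32.02, and both were at 0 in all P4 samples (adjusted p = 3.8e-05 and 0.0063). The 3 genes annotated as Neuropeptide-like 4B (BGIBMGA011763, BGIBMGA011716 and BGIBMGA011715) were also at 0 in all P4 samples, after P2 values of 115, 124 and 37.5, of 72.6, 57.6 and 14.3 and of 11.2, 16.3 and 4.33 (adjusted p = 0.0022, 0.00017 and 0.0017). Genes that share a product name may share reads, and no source used here says how such reads were assigned, so the levels of single members are uncertain. No single library carried any call of the family.

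Other neuropeptide and nervous system genes were low, and none of 4 tested passed. ACHRA7 (BGIBMGA003715), a subunit of the nicotinic acetylcholine receptor, stood at 3.72, 5.37 and 6.44 at P2 and 0.70, 0.85 and 0.82 at P4 and was not called (adjusted p = 0.107), but passed after quantile normalization (adjusted p = 0.021). Among hormone and growth factor genes, IGFLP (BGIBMGA012305), an insulin-like growth factor-like peptide that the silkworm fat body releases during the pupal stage, had values of 1722, 1531 and 782 at P2 and 143, 124 and 47.8 at P4. Each P4 sample was well below each P2 sample, a 12.8-fold fall (relative log2 change -3.48 ± 0.48, adjusted p = 0.001) that no alternative setting ended. It was the single call among 2 tested genes of the insulin and growth factor list, while 1.78% of all tested genes fell. Of 5 tested ecdysteroid genes none passed. CYP306A1 (BGIBMGA006936), the 25-hydroxylase step of ecdysone synthesis in the Halloween pathway, stood at 11.7, 10.7 and 12.4 at P2 and 7.88, 7.65 and 5.30 at P4 (adjusted p = 0.382). The ecdysteroid-regulated 16 kDa protein gene (BGIBMGA008405) stood at 172, 198 and 189 at P2 and 219, 213 and 311 at P4 (adjusted p = 0.597). The 2 tested members of the juvenile hormone list were FNTA (BGIBMGA011493) and FNTB (BGIBMGA004986), both annotated as farnesyltransferase subunits. Neither passed (adjusted p = 0.594 and 0.917), and the other members of that list were not tested.

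Several antimicrobial and immune recognition genes fell. Antimicrobial peptides are induced by the Toll and Imd pathways, chiefly in fat body and hemocytes, and recognition proteins bind bacterial cell walls. Of 27 genes in the list 12 were tested, 5 fell, none rose and 7 did not pass, with a median relative log2 change of -0.59. Among all tested genes 1.78% fell, and among those with an informative name 5.4%. A Lysozyme gene (BGIBMGA010439), which encodes an enzyme that cleaves peptidoglycan, had values of 159, 179 and 219 at P2 and 5.15, 10.8 and 8.22 at P4, a 23.1-fold fall without overlap (relative log2 change -4.16 ± 0.46, adjusted p = 0.00019). CECD (BGIBMGA000017), the membrane-lysing peptide cecropin D, stood at 78.9, 39.4 and 15.5 at P2 and was listed at 0 in all 3 samples at P4 (adjusted p = 0.00014). LEB1/2 (BGIBMGA006775), annotated as a lebocin, a proline-rich antimicrobial peptide, fell from 14.3, 10.3 and 21.1 to 1.38, 1.17 and 0 (relative log2 change -2.93 ± 0.53, adjusted p = 0.0069). These 3 calls held without any single library.

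The other 2 immune falls were less firm. ATTACIN1 (BGIBMGA002747), a glycine-rich antibacterial protein, had low P2 values of 3.63, 2.22 and 3.26 and was listed at 0 in all 3 samples at P4 (adjusted p = 0.0202). PGRP-S1 (BGIBMGA008038), a short peptidoglycan recognition protein, stood at 592, 615 and 336 at P2 and 173, 212 and 90.4 at P4, 3.24-fold lower (relative log2 change -1.48 ± 0.40, adjusted p = 0.0496). The call of ATTACIN1 ended without any of 5 TBH libraries, all but P2 replicate 2, with adjusted p of 0.055 to 0.094. That of PGRP-S1 ended without any TBH library other than P2 replicate 3, with adjusted p of 0.055 to 0.19, and without WT P2 replicates 1 and 3 and WT P4 replicates 2 and 3, with 0.05 to 0.077. Without TBH P4 replicate 3, 3 genes of the list fell, and with sample weights 3 rose and 6 fell. The 5 tested genes of cecropin B (CECB1), another membrane-lysing peptide, did not pass, and 4 of them had a positive relative log2 change. BGIBMGA000021 stood at 0, 0 and 45.4 at P2 and 22.4, 13.4 and 13.2 at P4 (relative log2 change 2.48 ± 1.5, adjusted p = 0.591), and BGIBMGA000023 at 0, 0 and 25.9 and 27.4, 20.2 and 17.6 (3.15 ± 1.28, adjusted p = 0.385). BGIBMGA000036 and BGIBMGA000038 had identical values in every sample, 7.62, 0 and 12.97 at P2 and 27.4, 6.71 and 2.20 at P4 (1.09 ± 0.92, adjusted p = 0.769), so their reads cannot be told apart, and without TBH P2 replicate 2 their change was -0.06. BGIBMGA000037 went the other way, with 30.5, 64.4 and 19.5 and 14.96, 13.4 and 8.80 (-1.16 ± 0.70, adjusted p = 0.455). BM18W (BGIBMGA011037), an 18 wheeler receptor of the Toll family, stood at 4.49, 2.90 and 3.46 at P2 and 0.64, 0.53 and 1.01 at P4 (relative log2 change -1.17 ± 0.29, adjusted p = 0.0231). The BM18W call ended without any TBH library other than P4 replicate 3 (adjusted p 0.056 to 0.11).

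Hemolymph proteins made by the fat body are markers of another tissue that a dissected ovary can carry, and 30K lipoproteins are at the same time yolk constituents. Of 19 such genes 10 were tested, 5 fell, none rose and 5 did not pass, with a median relative log2 change of -1.32. The share that fell was 1.78% over all tested genes and 5.4% over those with an informative name. LP-C19, LP-C12 (BGIBMGA004399), PPBP2, SP2 and PP-BP (BGIBMGA010168) stayed under 1 in every P4 sample. They met the filter through P2 alone, which left little room for a rise, so the counts and the median of the list are a description only. The summed values of the whole list ran from 147 to 304 at P2 and from 124 to 240 at P4 and overlapped, since the sum is led by a 30kDa protein (BGIBMGA004454) with 225, 100.4 and 84.6 at P2 and 121, 116 and 236 at P4, which did not pass (adjusted p = 0.888). Storage proteins of the fat body were low: SP1 (BGIBMGA011266) had 1.26, 1.07 and 0.20 at P2 and 0.35, 0.09 and 0.03 at P4, and SP3 (BGIBMGA009027) had 0.58, 0.50 and 0.25 and 0.16, 0.70 and 0.15. SP2 (BGIBMGA009028), the 1 storage protein of these that was tested, stood at 2.16, 1.16 and 3.45 at P2 and 0.10, 0.97 and 0.09 at P4, lower at P4 without overlap, and did not pass (relative log2 change -0.98 ± 0.36, adjusted p = 0.124). The part of fat body RNA in the falls was not tested.

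Within the 30K family, 30K protein 12 (BGIBMGA010876) fell 11.8-fold, from 25.7, 35.1 and 24.8 at P2 to 5.17, 0.66 and 1.40 at P4 (relative log2 change -3.08 ± 0.52, adjusted p = 0.0047). LP (BGIBMGA004394), a low molecular weight 30 kDa lipoprotein, fell 13.9-fold from 17.4, 14.3 and 13.9 to 1.00, 1.88 and 0.41 (relative log2 change -2.76 ± 0.44, adjusted p = 0.003). Neither call depended on any single library. 30K protein 14 (BGIBMGA008164) stood at 7.48, 6.51 and 3.92 at P2 and 1.37, 0.27 and 0.10 at P4 (relative log2 change -1.94 ± 0.36, adjusted p = 0.0058), and its call ended at a pseudocount of 0.1 (0.06) and in a fit of the 6 TBH samples alone (0.0586). LP-C19 (BGIBMGA004396), with 5.33, 3.49 and 4.64 against 0.33, 0 and 0.10, and PPBP2 (BGIBMGA008165), with 1.24, 1.49 and 2.64 against 0.25, 0 and 0, passed at low values (adjusted p = 0.0406 and 0.0302). The call of LP-C19 ended without any 1 of the 6 TBH libraries (adjusted p 0.081 to 0.15) and without any WT P4 library (0.056 to 0.066). For PPBP2 it ended without any TBH library other than P2 replicate 1 (0.07 to 0.13) and without WT P4 replicates 2 and 3 (0.054 and 0.055). Without TBH P4 replicate 3, 3 members of the list fell.

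Secreted regulators of the hemolymph fell as well. BMPP (BGIBMGA014551), the precursor of paralytic peptide, a cytokine that activates hemocytes and paralyses larvae when injected, had values of 58.2, 49.6 and 34.4 at P2 and 1.17, 0.31 and 0.90 at P4. That is a 59.8-fold fall with no overlap (relative log2 change -4.51 ± 0.47, adjusted p = 0.00014). SERPIN-1 (BGIBMGA009953), of the serpin family that traps serine proteases, stood at 45.4, 45.9 and 48.1 at P2 and 1.99, 8.08 and 8.70 at P4, 7.42-fold lower (relative log2 change -2.64 ± 0.52, adjusted p = 0.0115), and passed without each single library except TBH P2 replicate 2 (0.053). Of 5 tested protease inhibitors it was the 1 that fell, while 1.78% of all tested genes fell. A Kazal-type proteinase inhibitor (BGIBMGA011573) stood at 109, 106 and 75.6 at P2 and 15.7, 14.03 and 15.6 at P4, without overlap, and did not pass (adjusted p = 0.0694). In a fit of the 6 TBH samples alone, the Kazal-type gene passed (adjusted p = 0.0021). Hemocyte markers gave little signal: hemocytin (BGIBMGA006692) was at 0 in all 6 TBH samples and PPO1 (BGIBMGA012763) in all but 1, where it stood at 0.26. PRO-PO2 (BGIBMGA013115), a prophenoloxidase subunit of the melanization cascade, stood at 50.6, 65.05 and 44.6 at P2 and 24.9, 24.8 and 21.4 at P4, without overlap, and did not pass (relative log2 change -0.88 ± 0.31, adjusted p = 0.0944).

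Large lists of protein synthesis and folding held 1 call each, between 2.273% and 5.263% of their tested members. Those shares are near the 1.78% of all tested genes and the 5.4% of informatively named ones that fell. In the main fit the single calls therefore describe genes and not the lists. Sample weights, which raised the falls over all 4437 tested genes to 1070, gave other counts. Falls were then 14 of 22 translation factors, 12 of 19 chaperones and folding enzymes (1 rose), 9 of 28 genes of the proteasome list and 3 of 44 ribosomal proteins. BGIBMGA005781, annotated as a small heat shock protein of the kind that keeps unfolding proteins soluble, had values of 470.0, 387 and 430.4 at P2 and 86.2, 106 and 50.5 at P4. It fell 5.30-fold with no overlap (relative log2 change -2.21 ± 0.36, adjusted p = 0.003) and was the 1 called gene of 19 tested chaperones and folding enzymes. FKBP12 (BGIBMGA004331), a peptidyl-prolyl isomerase, stood at 572, 599 and 630.0 against 328, 412 and 419 and did not pass (adjusted p = 0.17). Eukaryotic initiation factor 4E-1 (BGIBMGA012675), an mRNA cap-binding protein, fell 4.37-fold from 14.5, 15.2 and 16.00 to 2.73, 2.89 and 4.83 (relative log2 change -1.64 ± 0.42, adjusted p = 0.0421), as 1 of 22 tested translation factors. UBI1 (BGIBMGA010604), the fusion of ubiquitin with ribosomal protein L40, fell 1.87-fold from 1878, 1972 and 1715 to 963, 813 and 1196 (relative log2 change -0.67 ± 0.18, adjusted p = 0.0215). The calls of 4E-1 and UBI1 ended without any TBH library other than P4 replicate 3, with adjusted p of 0.13 to 0.18 and of 0.063 to 0.11, and that of 4E-1 also without WT P4 replicate 1 (0.066). Since the fusion carries a ubiquitin and a ribosomal part, it is the 1 call both of 44 tested ribosomal proteins and of 28 genes of the proteasome, ubiquitin, autophagy and cathepsin list. The ribosomal proteins had a median relative log2 change of 0.12, which was -0.04 after quantile normalization and 0.58 without TBH P4 replicate 3.

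Further falls lay outside these groups. PP (BGIBMGA008221), annotated as promoting protein, had tight values of 247, 232 and 235 at P2 and 41.3, 37.6 and 31.8 at P4, a 6.45-fold fall (relative log2 change -2.42 ± 0.27, adjusted p = 0.00017) that every alternative kept. The 27 kDa glycoprotein gene (BGIBMGA000462) fell 5.70-fold, from 115, 123 and 108 to 16.5, 32.4 and 11.6 (relative log2 change -2.33 ± 0.45, adjusted p = 0.0087), and its call ended after quantile normalization (0.0775). SGF3 (BGIBMGA010868), a POU-domain transcription factor first known from the silk gland, stood at 13.00, 14.2 and 11.7 at P2 and 2.80, 3.01 and 4.66 at P4, 3.72-fold lower (relative log2 change -1.41 ± 0.31, adjusted p = 0.0142). The SGF3 call ended without any TBH library other than P4 replicate 3 (0.054 to 0.088). Of the silk proteins, fibroin heavy chain (BGIBMGA005111) was at 0 in all but 1 TBH sample, at 0.19. The fibroin light chain gene FIBL (BGIBMGA009393) stood at 1.13, 0.61 and 1.5 at P2 and 0.21, 0.53 and 1.00 at P4, and P25 (BGIBMGA001347), the glycoprotein bound to the fibroin chains, at 3.41, 1.34 and 1.40 and 1.12, 0.83 and 2.82. The stages overlapped for both, and the part of silk gland RNA in the SGF3 fall was not tested. Among genes without a name, BGIBMGA002565 fell 183-fold from 1832, 1274 and 1251 to 5.58, 17.01 and 1.18 (relative log2 change -7.56 ± 0.91, adjusted p = 0.00044). BGIBMGA012410 had P2 values of 95.4, 75.5 and 112 and was listed at 0 in all 3 samples at P4 (adjusted p = 4.9e-06). BGIBMGA002626 stood at 179.9, 58.1 and 55.5 at P2 and 0, 0 and 0.29 at P4 (relative log2 change -6.03 ± 0.52, adjusted p = 3.8e-05).

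The groups of general cell function gave no call. None passed among 12 tested genes of cell cycle and DNA replication, 13 of the respiratory chain and ATP synthase, 10 of glycolysis and the citric acid cycle, 19 of detoxification and redox, 9 of cytoplasmic actin, tubulin and motors, 6 odorant-binding and chemosensory genes, 4 of RNA splicing and 4 of lipid transport. Their median relative log2 changes lay between -0.30 and 0.37. With sample weights all 4 tested RNA splicing genes fell, and none of the 10 of glycolysis and the citric acid cycle did. The other lists then held 1 to 4 falls each. Without TBH P4 replicate 3, 1 RNA splicing gene fell. BMRPA3 (BGIBMGA009817), the small subunit of the replication protein that coats single-stranded DNA, stood at 267, 201 and 184 at P2 and 105, 89.6 and 189 at P4 (adjusted p = 0.395). Cytochrome c oxidase polypeptide IV (BGIBMGA013680), of the last respiratory complex, stood at 272, 284 and 377 and 381, 410.1 and 402 (adjusted p = 0.583). GSTD3 (BGIBMGA002211), a glutathione S-transferase of detoxification, stood at 101, 106 and 109 at P2 and 139.7, 133 and 168 at P4 (adjusted p = 0.641). For the oxidase subunit and GSTD3 all P4 values lay above all P2 values without the test passing. Carboxylesterase ae27 (BGIBMGA001841), a hydrolase of ester compounds, stood at 25.7, 36.2 and 37.8 against 55.2, 46.97 and 78.05 (adjusted p = 0.263, and 0.0363 after quantile normalization).

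Muscle transcripts, markers of the ovariole sheath or of attached muscle, were higher at P4 in the 3 samples without passing. A1 (BGIBMGA013945), a muscle actin, stood at 289.8, 401 and 281 at P2 and 788, 587 and 502 at P4 (relative log2 change 1.19 ± 0.30, adjusted p = 0.186). MLC-2 (BGIBMGA002259), the myosin regulatory light chain, stood at 181, 214 and 176 and 412, 298 and 217 (relative log2 change 0.90 ± 0.34, adjusted p = 0.49). The summed values of the 5 muscle genes ran from 457 to 615 at P2 and from 721 to 1201 at P4, and tropomyosin-1 (BGIBMGA001587) was at 0 throughout. Their part in the changes of other genes was not tested.

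**Figure D3:**
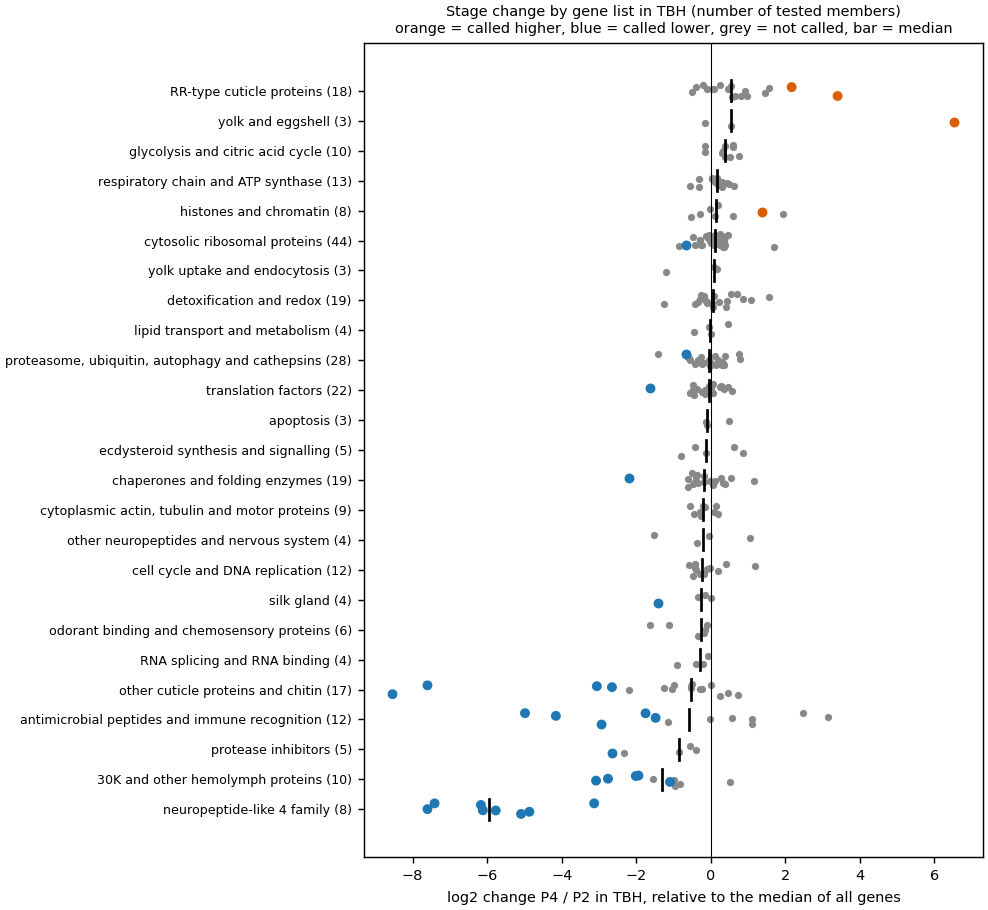
Each point is a tested member of a gene list with at least 3 tested members, placed by its log2 change from P2 to P4 in TBH relative to the median of all genes, with the number of tested members in brackets and a bar at the list's median. Orange and blue points are called higher and lower. The median of the 8 neuropeptide-like 4 genes lies furthest to the left (-5.94), and the lowest single point is CPG43 of the other cuticle list (-8.54). Ribosomal, respiratory and proteasome genes gather around 0.

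The same stages of WT ovaries were measured in separate samples, so the stage change of the lines can be set side by side. Of the same 4437 genes, 40 rose (0.902%) and 159 fell (3.58%) in WT, where the median change of all genes was -0.45. The filter used the TBH samples alone, so genes with signal only in WT could not be counted here or in the test of the difference. In both lines 70 genes were called, 68 of them in the same direction, which is 66.67% of the TBH calls and 34.17% of the WT calls. The genes that rose in TBH had a median relative log2 change of 2.55 in TBH and 1.40 in WT, and those that fell had -2.33 and -1.97. Across all tested genes, which are not independent, the changes correlated at a Pearson r of 0.51, given as a description. Of the 102 TBH calls 32 were not called in WT, yet the test of the difference between the lines passed for only 2 of these 32. VMP23 stood at 10.7 ± 2.34 at P2 and 784 ± 371 at P4 in WT (mean ± SD, n = 3 each), and the difference of its stage change between the lines was 0.12 ± 0.46 on the log2 scale. BGIBMGA004157 also rose in WT, from 1406 ± 682 to 54080.0 ± 17530.0, with a difference of -0.01 ± 0.50. CPG43 fell in WT from 3012 ± 1739 to 6.60 ± 8.32, and IGFLP (BGIBMGA012305) from 3752 ± 2337 to 324 ± 19.4.

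**Figure D4:**
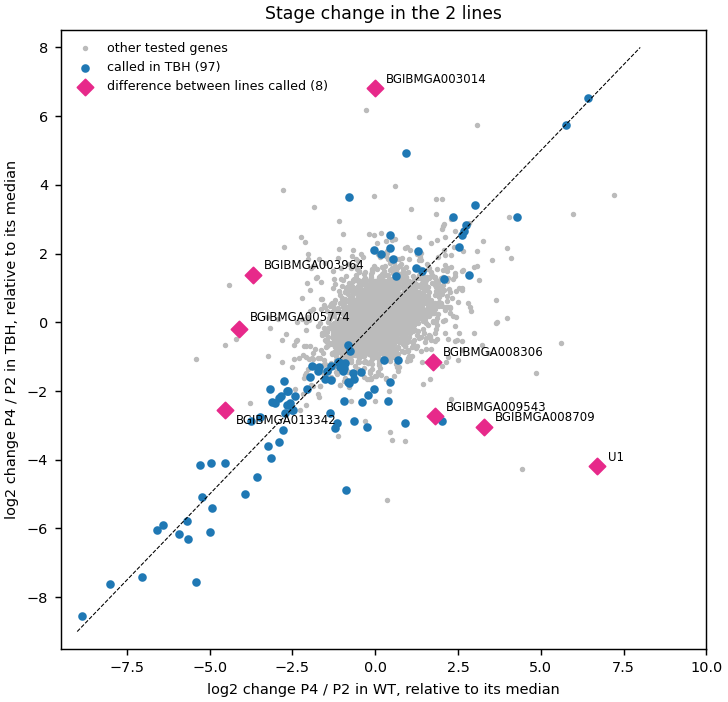
Each point is a tested gene, placed by its log2 change from P2 to P4 in WT on the x axis and in TBH on the y axis, each relative to its own median, with a dashed line at equal change. Blue points are the other 97 genes called in TBH and pink diamonds the 8 genes whose stage change differed between the lines; changes of genes at 0 in a group are set by the pseudocount of 1.

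Named genes whose stage change differed most between the lines by unadjusted p mostly missed the threshold after adjustment. VG stood at 43.3, 47.3 and 97.96 at P2 and 2.06, 10.9 and 2.10 at P4 in WT, where it fell (adjusted p = 0.0021), against the low values of both stages in TBH (difference 3.03 ± 0.77, adjusted p = 0.267). The fat body storage protein SP1 (BGIBMGA011266) stood at 5.12, 18.6 and 6.58 and 0.12, 0.22 and 0.26 in the same WT samples, and the part of fat body RNA in the VG values was not tested. GSTD3 stood at 11.9, 15.8 and 10.2 and 7.59, 3.88 and 1.79 in WT (difference 1.74 ± 0.50, adjusted p = 0.375). All 6 WT samples had BMORCPR49 listed at 0, and the difference did not pass (adjusted p = 0.347). SPARC (BGIBMGA013448), a collagen-binding glycoprotein of basement membranes, stood at 529, 459 and 968 at P2 and 582, 758 and 1045 at P4 in TBH and at 589.9, 577 and 546 and 308, 196 and 270.5 in WT (difference 1.31 ± 0.43, adjusted p = 0.52). In the opposite direction, BMORCPH1 (difference -2.78 ± 0.67, adjusted p = 0.347), PRO-PO2 (-1.72 ± 0.43, 0.518) and Histone H2A (-1.43 ± 0.37, 0.531) had a more negative stage change in TBH without passing. For Histone H2A this was a smaller rise and not a fall. Its relative log2 change was 1.37 in TBH and 2.82 in WT, where it rose from 31.4 ± 12.4 to 163 ± 32.3 (adjusted p = 0.00024).

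The difference of the stage change passed for 8 genes, 4 with a more positive change in TBH (0.0902%) and 4 with a more negative one (0.0902%), against 204 (4.6%) at an unadjusted p under 0.05. BGIBMGA008709 stood at 37.1, 40.04 and 29.1 at P2 and 4.06, 1.78 and 2.64 at P4 in TBH, and at 0 in all 3 samples and 7.32, 4.51 and 7.18 in WT. It fell in TBH and rose in WT (difference adjusted p = 0.00027), and no alternative ended this call. BGIBMGA003964 stood at 15.3, 19.8 and 36.9 at P2 and 56.2, 49.8 and 46.1 at P4 in TBH, where it did not pass (adjusted p = 0.28), and at 8.52, 22.9 and 23.5 and 0 in all 3 samples in WT, where it fell (difference adjusted p = 0.0041). BGIBMGA003014, which rose 101-fold in TBH, stood at 6.34, 6.19 and 3.01 and 5.08, 9.09 and 0.37 in WT (difference 6.83 ± 0.94, adjusted p = 0.0152). The call of that difference ended without TBH P4 replicate 1 (0.05 after rounding), without TBH P4 replicate 2 (0.081) and at a pseudocount of 0.1 (0.075). The other 5 were a copy of the spliceosomal U1 RNA (ENSRNA022710950), BGIBMGA005774, BGIBMGA008306, BGIBMGA009543 and BGIBMGA013342, and each of their calls ended without any of several single libraries.

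**Figure D5:**
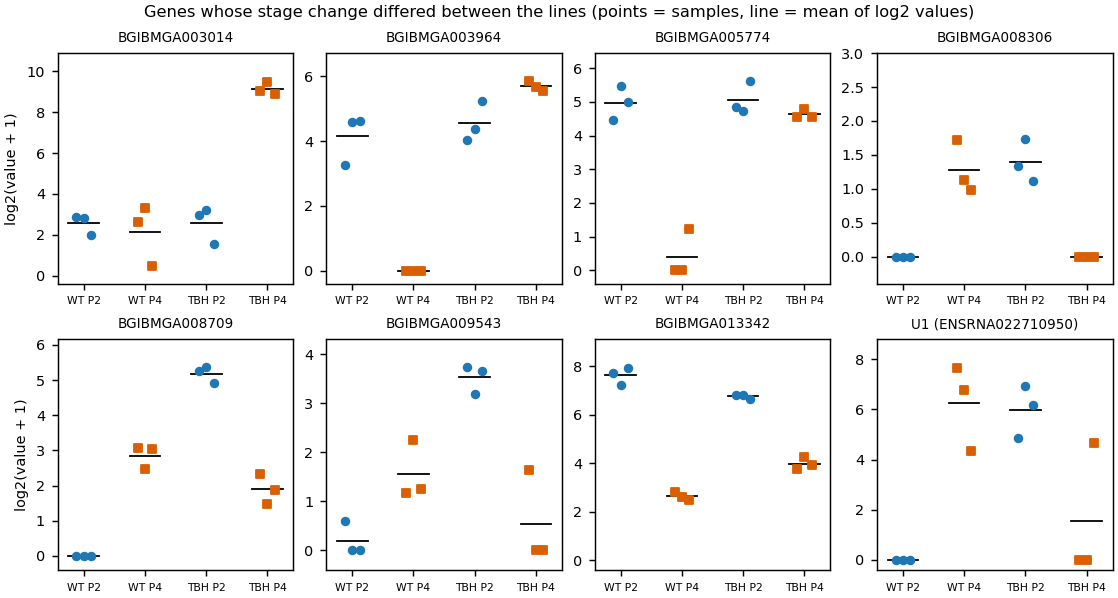
Each panel shows 1 of the 8 genes whose stage change differed between the lines, with log2(value + 1) on the y axis, 3 samples in each of the 4 groups, blue circles for P2, orange squares for P4 and a line at each group's mean. BGIBMGA003014 is high in the TBH P4 samples alone, and BGIBMGA008709 is at 0 in the WT P2 samples and highest in the TBH P2 samples.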

How the data were processed

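The authors deposited a normalized signal for each gene, with 2 decimals, for 12 samples and for the means of the 4 groups. The submitters' processing notes list Cufflinks and DESeq2, with no version or role. The aligner, genome build, annotation and unit are not stated in these sources. Samples were grouped by the line and stage in their titles. Genes that reached 1 in 3 or more of the 6 TBH samples were kept, and log2(value + 1) was fitted in R 4.3.3 with limma 3.58.1 (trend on) over all 12 samples with 1 mean per group, with Benjamini-Hochberg adjustment over all 4437 genes and a threshold of 0.05. A test for counts had been foreseen, but the values are no counts and it was not run. The pseudocount makes changes of low values look smaller. The difference between lines was the interaction contrast. Printed differences are relative to their median of 0.18, which their p-values do not subtract. Errors of log2 changes are standard errors, others SDs. Folds divide one group mean by the other. Shares were compared with SciPy 1.17.1.

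Members and gene lists were chosen with earlier results of these data known. The rule for naming took up to 10 rises and 10 falls, the largest among called genes with an informative name, a mean of at least 1 in the higher group and no overlap. From each of 34 lists it took as many as 3 members by smallest p, and the most abundant other-tissue members. It further took up to 3 unnamed IDs in each direction and up to 5 named genes per direction with the smallest p of the difference. VG, VMP23 and GSTD3 were known from earlier results, and other named members were chosen after their values were seen. Not every gene so chosen is named in the text. The lists of yolk uptake and endocytosis, serine proteases, developmental signalling, homeobox and patterning, and apoptosis held no call and are not described. Gene IDs matched 0 entries of the reference table, so names come from the deposited table and no coordinates or sequences are given. A gene that the rule names is not reported here. The fit was checked on simulated data.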

Additional observations from a re-analysis of the deposited data

Results flagged for a closer look

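A test of the difference between the lines marked 8 genes whose change from P2 to P4 was unlike in TBH and WT; values are log2 differences, TBH minus WT, relative to the median difference of all genes, and for genes with a group at 0 they depend on the pseudocount. For BGIBMGA008709 it was -6.31 and for BGIBMGA003964 5.10, and for BGIBMGA003014 6.83. BGIBMGA005774 differed by 3.95: it stood at 27.7, 25.3 and 47.6 at P2 and 22.5, 26.3 and 22.4 at P4 in TBH and at 21.1, 42.96 and 30.8 and 0, 0 and 1.35 in WT (adjusted p = 0.0196, 0.053 to 0.097 in the 8 cases where leaving out 1 library ended the call). BGIBMGA008306 differed by -2.86, with 1.52, 2.32 and 1.17 and 0 in all 3 samples in TBH and 0 in all 3 samples and 2.30, 1.20 and 0.98 in WT (adjusted p = 0.0277, 0.056 to 0.10 in such cases), and its fall in TBH also passed no longer without any of 5 TBH libraries (0.064 to 0.11). The U1 copy ENSRNA022710950 differed by -10.87, with 27.8, 123 and 70.6 at P2 and 0, 0 and 24.1 at P4 in TBH and 0 in all 3 samples and 201, 109 and 19.1 in WT (adjusted p = 0.0279, 0.058 to 0.10 in such cases). Since 392 U1 genes are listed and 9 were tested, the level of a single copy is uncertain. Another tested copy, ENSRNA022711394, picked for its small unadjusted p, stood at 26.8, 23.6 and 17.0 and 0 in all 3 samples in TBH. In WT it stood at 0 in all 3 samples and 47.95, 77.8 and 0, and its difference of -8.68 did not pass (adjusted p = 0.149). BGIBMGA013342 differed by 2.01: it fell in both lines, from 113, 113 and 101 to 12.7, 17.9 and 14.4 in TBH and from 212, 148 and 243 to 6.11, 5.16 and 4.62 in WT (adjusted p = 0.0279, 0.056 to 0.11 in such cases). BGIBMGA009543 differed by -4.53, with 12.4, 8.08 and 11.7 and 2.10, 0 and 0 in TBH and 0.51, 0 and 0 and 1.26, 3.77 and 1.38 in WT (adjusted p = 0.03, 0.053 to 0.12 in such cases).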

How the results depend on the processing

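The count of 23 rises became 42 after quantile normalization, 15 with a mean of at least 10, 163 with sample weights and 37 without both libraries that stand apart (TBH P4 replicate 3 and WT P2 replicate 2, chosen after seeing the data). The 79 falls became 49 with a mean of at least 10, 1070 with sample weights and 171 without both libraries. Leaving out 1 library gave 9 to 32 rises, 50 to 103 falls, and 1 to 6 more positive and 1 to 4 more negative differences between the lines. The 4 more positive differences became 2 after quantile normalization, 12 with sample weights and 2 without both libraries, and the 4 more negative ones 2 with a mean of at least 10, 7 with sample weights and 1 with the replicate block. The causes were not tested. The replicate block gave 17 rises and 65 falls; same-numbered TBH samples of the stages deviated together with correlations of 0.0501, 0.0374 and -0.0376, so the numbers were not taken as pairs. The median change of all genes was -0.25, -0.01 after quantile normalization and between -0.45 and -0.15 without single TBH libraries. Over 101 single-gene values of the text and their alternatives, 1923 of 2183 kept direction and side of the threshold, and 29 of 46 named calls held in every alternative. Beyond single libraries, other settings ended the calls of Histone H2A, PGRP-S1, UBI1, PPBP2, Eukaryotic initiation factor 4E-1, BM18W, LP-C19, ATTACIN1, BMORCPR49, SGF3, 30K protein 14, 27 kDa glycoprotein, BGIBMGA003584, BGIBMGA008306 and BGIBMGA009543, and of every difference between the lines but those of BGIBMGA008709 and BGIBMGA003964. The uncalled TBH change of BGIBMGA005774 turned positive with sample weights (0.05), without TBH P2 replicate 3 (0.14), without TBH P4 replicate 3 (0.06) and without both libraries (0.06), and ranged from -0.35 to 0.14 over single libraries left out. The uncalled changes of CECB1 (BGIBMGA000036) and CECB1 (BGIBMGA000038), which share all values, ranged from -0.06 without TBH P2 replicate 2 to 2.03 without TBH P4 replicate 3, and with sample weights these genes and BGIBMGA000023 passed as rises and BGIBMGA000037 as a fall. Depth is unknown, and 713 tested genes are listed at 0 in at least 1 of the 6 samples.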
